A study of Mus musculus with 6 samples.

Results

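The interferon-stimulated genes described here are Bst2, Ifit1, Ifit3, Isg15, Ifitm2, Ifitm3, Stat2, Irf1 and Irf7. They were chosen by name, 9 of the 54551 genes in the deposited tables, and each name matched 1 gene. The study measured RNA of granulosa cells, the somatic cells that surround the oocyte, from ovaries of C57BL/6 mice on postnatal day 21. All mice, of both genotypes, had received 5 IU of PMSG, which stimulates follicle growth, and 48 h later 5 IU of HCG, a hormone that triggers ovulation. Cells were collected 6 h after HCG. There were 3 libraries labelled wild type and 3 labelled Gm12840-/-, a knockout of a long noncoding RNA gene, called knockout below. Which part of Gm12840 was deleted is not given, nor that libraries came from separate animals, so a p-value covers no more than the spread among these libraries, which may be technical.

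Interferons are secreted proteins that a cell makes when it senses viral nucleic acid or other danger. They bind receptors on the same or other cells, and the kinases JAK1 and TYK2 then activate transcription factors such as STAT2, which acts with IRF9 at the interferon-stimulated response element in the promoters of their target genes. Interferon gamma acts through another promoter element, the gamma-activated site. Many of these targets also have a basal level without added interferon, and some, such as Irf1, respond to other signals.

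Promoter sequences are shown first, because the response element is what these genes are known to share. The RefSeq table (GRCm38.p6, the same build as mm10) gave windows of 300 bases, from 250 before to 50 after a start site, for 9 of the 9 genes, with 2 windows for Irf1. Searched on both strands, the core of the response element (GAAA, any 2 bases, GAAA) was present in windows of 7 of the 9 genes, against 3.44% of all 32851 windows. The gamma-activated site, TTCNNNGAA, which reads the same on both strands, was present in windows of 3 genes, Bst2, Ifitm3 and Irf1, against 8.30% of all windows. A match is a run of letters and not a measured binding site, and the genes were grouped as interferon targets beforehand. Below, each stretch is written 5′ to 3′ on the strand of its gene, in lower case, with the letters of the matches in capitals. They are shown because matches in abundant and in nearly silent members can be compared.
Bst2: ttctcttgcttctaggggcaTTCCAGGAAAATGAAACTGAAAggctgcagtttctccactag
Isg15: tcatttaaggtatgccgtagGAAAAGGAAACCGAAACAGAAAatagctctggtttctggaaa
Ifit1: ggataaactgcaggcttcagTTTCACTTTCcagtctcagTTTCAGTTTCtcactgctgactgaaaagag
Ifit3: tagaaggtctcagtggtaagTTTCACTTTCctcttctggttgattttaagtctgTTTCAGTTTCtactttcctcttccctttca
Ifitm2: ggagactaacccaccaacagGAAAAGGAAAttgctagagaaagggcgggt
Ifitm3: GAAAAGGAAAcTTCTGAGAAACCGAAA
Stat2: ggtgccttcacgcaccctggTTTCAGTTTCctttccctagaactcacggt
Irf1: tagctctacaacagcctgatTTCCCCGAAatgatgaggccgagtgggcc

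These stretches lie at chr8:71537567-71537628 (Bst2, minus strand), chr4:156200855-156200916 (Isg15, minus), chr19:34640765-34640833 (Ifit1, plus) and chr19:34583353-34583436 (Ifit3, plus). The others are at chr7:140955978-140956027 (Ifitm2, minus), chr7:141010716-141010742 (Ifitm3, minus), chr10:128270256-128270305 (Stat2, plus) and chr11:53769904-53769952 (Irf1, plus). Isg15 had 3 overlapping copies of the response element core in 1 run. Bst2 had 2 overlapping copies, and a gamma-activated site overlapped the first of them. Ifit1 and Ifit3 each had 2 separate copies on the opposite strand. In Ifitm3 the 2 copies and the gamma-activated site lay within the first 30 bases after the RefSeq start, so only the matched letters are printed. Irf1 had a gamma-activated site and no response element core, and Irf7 had neither in its window. The plot of motif positions shows where each match lies.

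**Figure D1:**
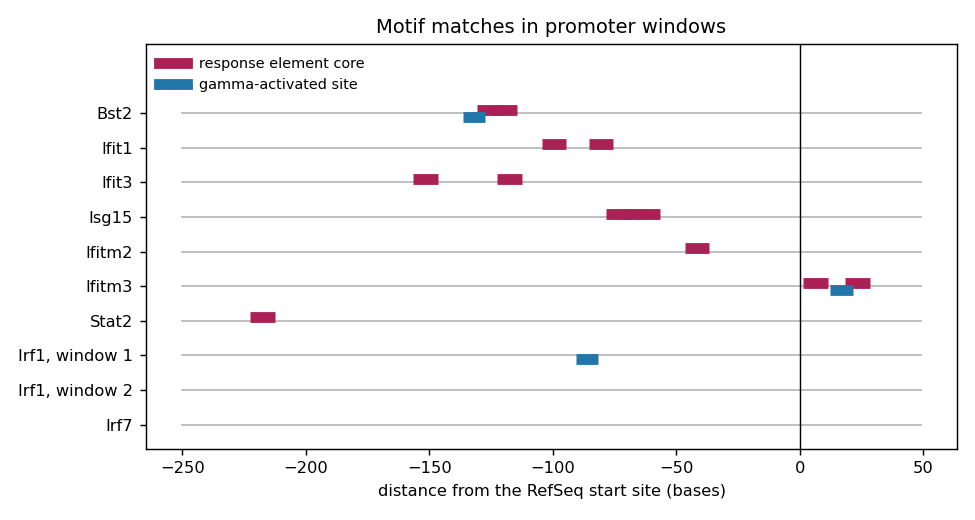
Positions of motif matches in the promoter windows, in bases from the RefSeq start site (vertical line at 0), 1 row per window. Red bars are matches to the response element core and blue bars are gamma-activated sites. Matches to the core appear in 7 of 9 genes, before the start in all of these except Ifitm3.

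The 6 libraries held 16392098 to 19465847 recovered reads. Transcripts of the mitochondrial genome, whose share can reflect sample quality, took 0.125% to 0.286% of the reads in 3 libraries (wild type 1, wild type 2 and knockout 3). They took 1.47% to 4.13% in the other 3 (wild type 3, knockout 1 and knockout 2). Longer genes also had relatively lower values in the first 3 libraries, where log2(FPKM + 1) changed by -0.26 to -0.21 per doubling of gene length, against -0.090 to 0.066 in the others. Gm12840 measured 1.83, 0.566 and 0.365 FPKM in labelled wild type libraries 1 to 3 and 0.426, 0.611 and 1.45 FPKM in labelled knockout libraries 1 to 3. These values rest on 17, 6 and 5 reads and on 5, 7 and 14 reads, so the targeted gene does not check the labels. Every direction below rests on those labels, and names such as wild type 1 or knockout 3 stand for the libraries labelled so. The granulosa cell factor Foxl2 was present in every library, at 26.2 to 48.5 FPKM.

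Membrane restriction factors were the most abundant members. Bst2 (ENSMUSG00000046718), also called tetherin, is a membrane protein that holds budding virus particles at the cell surface. The gene is on chromosome 8, from 71534255 to 71537456 on the minus strand in mm10. It measured 515, 245 and 109 FPKM (fragments per kilobase of gene, scaled to sequencing depth) in labelled wild type libraries 1 to 3, and 166, 84.1 and 417 FPKM in labelled knockout libraries 1 to 3. Its highest levels were in wild type 1 and knockout 3 and its lowest in knockout 2, so the labelled groups overlapped over nearly their whole range. These values rest on 1389 to 6903 reads per library. Bst2 ranked between the 96.3rd and 98.7th percentile of the 12495 genes tested in every library.

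Ifitm2 and Ifitm3 encode small membrane proteins that hinder the entry of enveloped viruses, and lie on chromosome 7 from 140954837 to 140955987 and from 141009586 to 141010770, both on the minus strand. Ifitm2 (ENSMUSG00000060591) measured 114, 93.2 and 82.7 FPKM in labelled wild type libraries 1 to 3 and 117, 74.2 and 93.1 FPKM in labelled knockout libraries 1 to 3. It varied least of the 9 genes, with its highest library 1.57 times its lowest. Ifitm3 (ENSMUSG00000025492) measured 76.4, 54.5 and 35.5 FPKM in labelled wild type libraries 1 to 3 and 73.6, 39.9 and 71.8 FPKM in labelled knockout libraries 1 to 3. Both genes were lowest in wild type 3 and knockout 2, and the labelled groups overlapped. Ifitm2 was above Ifitm3 in 6 of 6 libraries, by 1.30 to 2.33 times, although the ranges of the genes over libraries overlapped. The level of Ifitm2 is uncertain, because 48.5% of the 50-base words in its transcript also occur in other annotated genes, most of them in the overlapping gene Gm45717. Gm45717 was listed at 0 reads in every library. For Ifitm3 this share was 10%. Ifitm1, a close relative, stood lower, at 1.46 to 6.03 FPKM.

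Isg15 (ENSMUSG00000035692) encodes a ubiquitin-like protein that is attached to other proteins after interferon stimulation. It is on chromosome 4 from 156199424 to 156200818 on the minus strand. It measured 6.41, 4.70 and 2.55 FPKM in labelled wild type libraries 1 to 3, and 4.17, 1.88 and 8.08 FPKM in labelled knockout libraries 1 to 3. The highest library was knockout 3 and the lowest knockout 2, so the knockout group spanned the wild-type group. Isg15 rests on 26 to 94 reads per library. On the FPKM scale Bst2 was 39.8 to 80.3 times as high as Isg15 within a library, and the promoters of both hold overlapping copies of the response element core.

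The IFIT proteins bind foreign RNA and were the least abundant members. Ifit1 (ENSMUSG00000034459) and Ifit3 (ENSMUSG00000074896) lie on chromosome 19, from 34640871 to 34650009 and from 34583531 to 34588731, both on the plus strand. Ifit1 had 16, 6 and 3 reads in labelled wild type libraries 1 to 3 and 9, 10 and 32 reads in labelled knockout libraries 1 to 3. Its levels were 0.406, 0.134 and 0.0518 FPKM against 0.181, 0.206 and 0.783 FPKM. Its highest level was in knockout 3, with an exact Poisson interval of 0.535 to 1.10 FPKM at 95%, which overlapped that of the next highest, wild type 1, at 0.232 to 0.659 FPKM. With reads pooled by label, knockout libraries had 2.09 times the wild-type level (exact interval 1.27 to 3.51), or 1.10 times (0.573 to 2.08) without knockout 3. Without wild type 1 it was 4.19 (2.04 to 9.68). These intervals cover counting error only and say nothing of the spread between libraries. Of the 50-base words of Ifit1, 7.1% also occur in other annotated genes, 184 of these 186 words in Ifit1bl2. Ifit1bl2 had 482 reads in all 6 libraries together, against 76 for Ifit1, so the low counts of Ifit1 could include reads of Ifit1bl2.

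Ifit3 had 12, 17 and 6 reads in labelled wild type libraries 1 to 3 and 6, 6 and 19 reads in labelled knockout libraries 1 to 3, or 0.463, 0.576 and 0.158 against 0.184, 0.188 and 0.707 FPKM. It was again highest in knockout 3, and the labelled groups overlapped. With reads pooled by label, knockout libraries had 0.906 times the wild-type level (0.540 to 1.51), and 0.497 (0.235 to 0.980) without knockout 3. Without wild type 1 the ratio was 0.997 (0.563 to 1.79). These intervals, too, cover counting error only. Of the 50-base words of Ifit3, 51.2% also occur in its copy Ifit3b, so reads could be split between them. Ifit3b had 8 reads in all 6 libraries together. Neither Ifit gene passed the filter of FPKM over 1 in at least 3 libraries, so both were tested only in a fit without a filter.

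The transcription factors stood between these extremes. Irf1 (ENSMUSG00000018899), a factor induced by interferon gamma and by other stimuli, is on chromosome 11 from 53770014 to 53778374 on the plus strand. It measured 9.03, 14.9 and 9.10 FPKM in labelled wild type libraries 1 to 3, and 20.5, 13.5 and 9.02 FPKM in labelled knockout libraries 1 to 3. Irf1, like Ifitm2, was highest in knockout 1, and its lowest level, in knockout 3, was close to those of wild type 1 and wild type 3. Its exons overlap those of Gm17334, on the opposite strand, over 3.40% of their length. How reads were counted there, by strand or not, is not given.

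Stat2 (ENSMUSG00000040033), which carries the type I interferon signal to the nucleus, is on chromosome 10 from 128270559 to 128292849 on the plus strand. It measured 3.02, 3.36 and 4.72 FPKM in labelled wild type libraries 1 to 3, and 3.50, 4.61 and 2.86 FPKM in labelled knockout libraries 1 to 3. Its order over libraries ran against that of Bst2 and Isg15, with the highest levels in wild type 3 and knockout 2. Irf7 (ENSMUSG00000025498), which amplifies the type I interferon response, is on chromosome 7 from 141262706 to 141266481 on the minus strand. It measured 1.68, 2.13 and 1.18 FPKM in labelled wild type libraries 1 to 3, and 1.73, 1.06 and 2.65 FPKM in labelled knockout libraries 1 to 3. Like Isg15, it was highest in knockout 3 and lowest in knockout 2, and the labelled groups overlapped. Of its exonic bases, 1.19% overlap Phrf1 on the opposite strand.

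In order of mean FPKM the members were Bst2, Ifitm2, Ifitm3, Irf1, Isg15, Stat2, Irf7, Ifit3 and Ifit1. Neighbours in this order did not overlap over the 6 libraries between Ifitm3 and Irf1, between Irf1 and Isg15, between Stat2 and Irf7, or between Irf7 and Ifit3. The ranges overlapped between Bst2 and Ifitm2, although Bst2 was higher in 6 of 6 libraries. They overlapped too between Isg15 and Stat2, where Isg15 was higher in 4 of 6 libraries, and between Ifit3 and Ifit1, also 4 of 6. The response element core was thus present in the windows of the 3 most abundant genes and in those of the 2 least abundant.

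**Figure D2:**
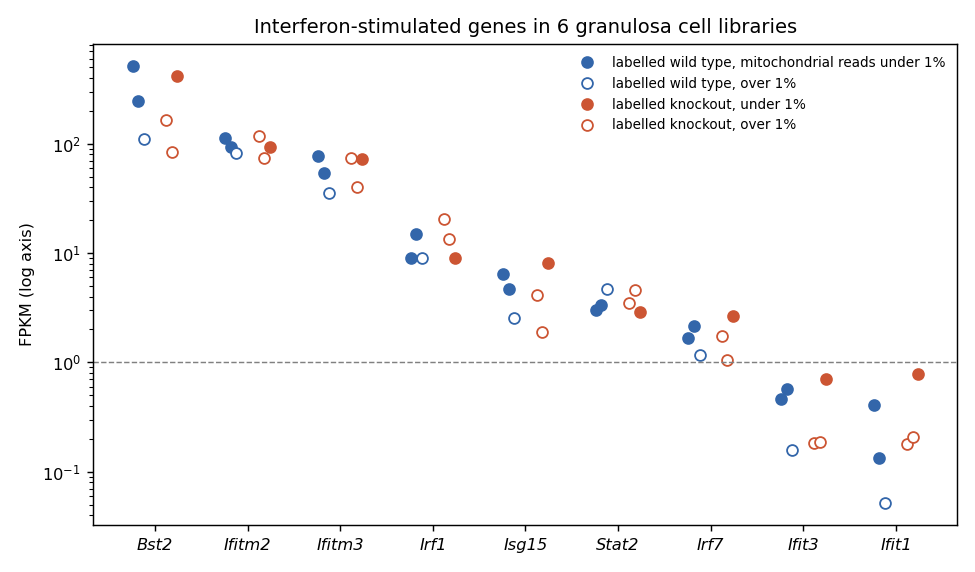
FPKM of each member in each of the 6 libraries on a log axis, with wild type in blue on the left and knockout in orange on the right. Filled points are libraries with under 1% mitochondrial reads, open points those with over 1%, and the dashed line marks 1 FPKM. For every member the blue and orange points overlap, and for Bst2, Isg15 and Ifit3 all filled points lie above all open ones.

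The design asked whether expression differed between the labelled genotypes, and no member did so beyond the spread between libraries. limma on log2(FPKM + 1) called 0 of the 7 members that passed the filter at an adjusted p under 0.05, where it called 0% of the 12495 genes tested. At an unadjusted p under 0.05 it gave 0 of the 7 members, against 0.728% of all genes tested. With limma-voom, run on reads recovered from the FPKM values, 0 of the 7 and 0% of all genes were called, with 0.576% at an unadjusted p under 0.05. The labelled groups did not overlap in 0 of the 9 members, against 3.53% of all genes tested. Of the 7 members, 3 log2 fold changes were above 0 and 4 below it, and the median over all genes tested was -0.035.

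The estimates had wide intervals. For Irf1 the means were 11.0 ± 3.36 FPKM in labelled wild type and 14.3 ± 5.81 in labelled knockout libraries (SD, n = 3 each), with a log2 fold change of 0.32 ± 0.35 (SE) and adjusted p = 0.993 by limma. For Bst2 they were 290 ± 206 and 222 ± 173 FPKM, with a log2 fold change of -0.41 and a 95% interval of -2.23 to 1.41. The interval of Bst2 was the widest of the members and holds changes of over 2-fold in both directions. For Isg15 the means were 4.55 ± 1.94 and 4.71 ± 3.13 FPKM, with an interval of -1.18 to 1.08 around a log2 fold change of -0.05. Ifitm2, at 96.5 ± 15.8 and 94.6 ± 21.2 FPKM, had a log2 fold change of -0.04 and an interval of -0.74 to 0.66. Ifitm3, at 55.5 ± 20.4 and 61.8 ± 18.9 FPKM, had 0.17 and an interval of -0.76 to 1.10.

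Stat2, at 3.70 ± 0.895 and 3.66 ± 0.883 FPKM, had a log2 fold change of -0.01, with an interval of -0.58 to 0.55. Irf7, at 1.66 ± 0.477 and 1.81 ± 0.799 FPKM, had 0.06 (-0.60 to 0.71). The adjusted p by limma lay between 0.993 and 0.999 for the 7 members. In the fit without a filter, which tested 29484 genes and called 0% of them, with 1.61% at an unadjusted p under 0.05, Ifit1 had a log2 fold change of 0.20 (adjusted p = 0.958 by limma) and Ifit3 of -0.05 (0.967). On this scale the change of such low genes is understated. With a pseudocount of 0.1 the values were 0.69 for Ifit1 and -0.19 for Ifit3 (adjusted p = 0.968 and 0.971 by limma), and with limma-voom 1.09 and -0.24 (0.957 and 0.977).

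**Figure D3:**
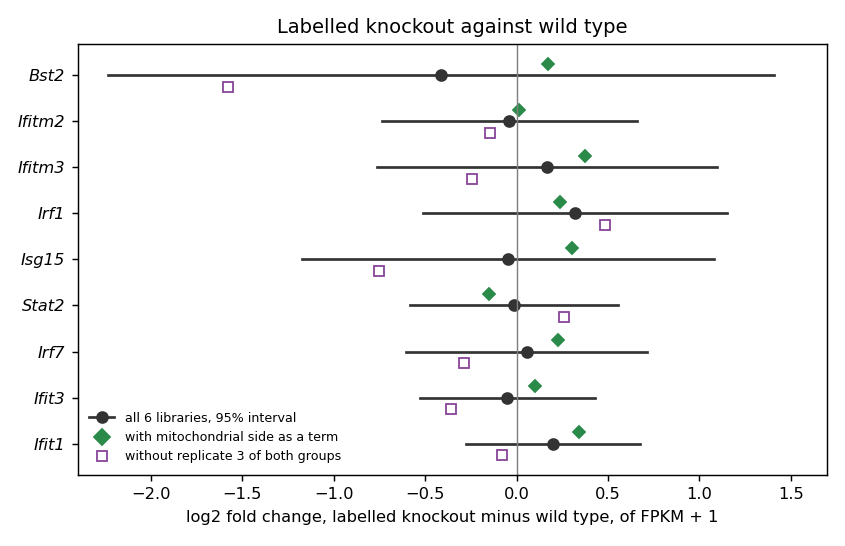
Log2 fold change of FPKM + 1, labelled knockout minus wild type, for each member. Black points and lines are the estimate and 95% interval from all 6 libraries (Ifit1 and Ifit3 from the fit without a filter), green diamonds the estimate with the mitochondrial side of the library as a second term, and open squares the estimate without replicate 3 of both groups. Every black line crosses 0, and Bst2 lies at -0.41, 0.17 and -1.58 by these 3 fits.

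On the FPKM scale 4 of the 9 members separated by the mitochondrial share of the libraries, which cuts across the labels. Bst2 stood at 245 to 515 FPKM in the 3 libraries with under 1% mitochondrial reads and at 84.1 to 166 FPKM in the 3 with over 1%. Isg15 stood at 4.70 to 8.08 and 1.88 to 4.17 FPKM, and Ifit3 at 0.463 to 0.707 and 0.158 to 0.188 FPKM. Stat2 ran the other way, at 2.86 to 3.36 against 3.50 to 4.72 FPKM. Among the 7 members past the filter, 2 were thus higher without overlap where mitochondrial reads were few, against 34.9% of all genes tested, and 1 was higher without overlap where they were many, against 31.4%. These shares of the members are near or below the background, so the split is not a result about interferon targets. The totals that scale the deposited FPKM followed the same split. They were 0.894 to 0.939 times the recovered reads where mitochondrial reads were few, and 1.12 times where they were many. Isg15 had 60 of 17997837 recovered reads in wild type 2 and 59 of 16722828 in knockout 1. Per recovered read it was thus lower in wild type 2, and its 2 sets of libraries overlapped.

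The remaining members overlapped between the 2 sets of libraries. Irf7 stood at 1.68 to 2.65 FPKM where mitochondrial reads were few and 1.06 to 1.73 FPKM where they were many. Ifitm2 and Ifitm3 overlapped as well, chiefly because both were high in knockout 1, at 117 and 73.6 FPKM. Within the libraries with few mitochondrial reads, knockout 3 was above the mean of wild type 1 and 2 by 0.23 for Bst2 and 0.48 for Isg15 on the log2 scale. Within those with many, the mean of knockout 1 and 2 was above wild type 3 by 0.11 and 0.12. For Irf1 the corresponding differences were -0.33 and 0.81, so they had opposite signs. A side holds 1 library of 1 label, so these differences have no test of their own.

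With the side of the library as a second term, limma called none of the 7 members and 0.008% of all genes tested. Bst2 then had a log2 fold change of 0.17, Isg15 of 0.30 and Ifitm3 of 0.37, and Stat2 of -0.15. In the same design without a filter Ifit1 had 0.34 with an unadjusted p of 0.0404, a level that 2.59% of all genes reached, and an adjusted p of 0.997 by limma. With the length slope as the second term it had 0.32 and an unadjusted p of 0.0532 by limma, and 3.91% of all genes were under 0.05. Isg15 then had 0.31 with an unadjusted p of 0.0438, where 5.02% of the genes past the filter were under 0.05, and an adjusted p of 0.939 by limma. Leaving out replicate 3 of both groups gave the only call of a member, Bst2, with a log2 fold change of -1.58 and adjusted p = 0.0407 by limma. That fit called 27.6% of all genes tested, and those called lower in knockout were 16.3% of all genes tested. It sets wild type 1 and 2, with few mitochondrial reads, against knockout 1 and 2, with many, so label and mitochondrial share cannot be told apart in it.

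**Figure D4:**
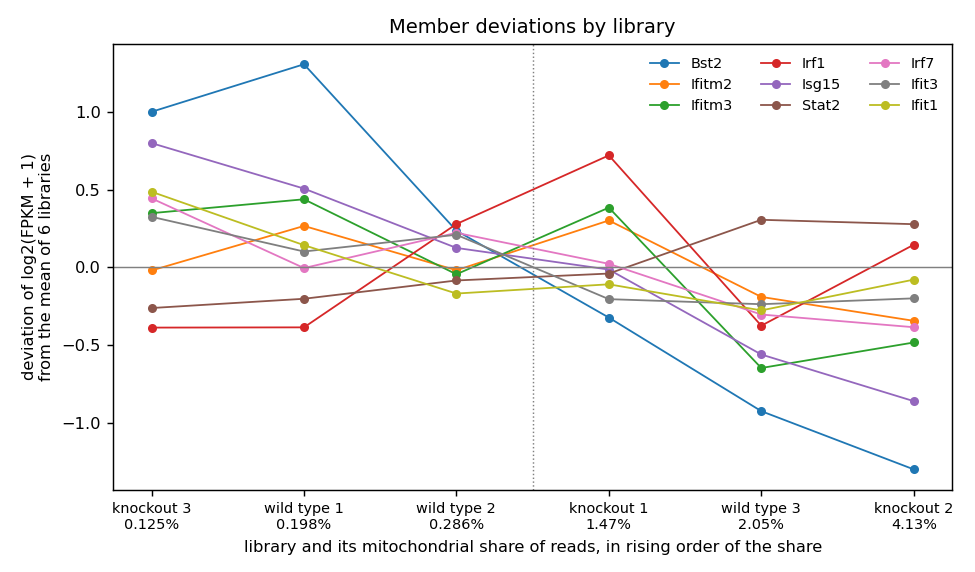
Deviation of log2(FPKM + 1) of each member from its mean over the 6 libraries, with libraries in rising order of their mitochondrial share of reads (below each name), and the dotted line between those under and over 1%. Bst2 and Isg15 lie above 0 on the left and below it on the right, Stat2 lies below 0 on the left and is highest in wild type 3 and knockout 2 on the right, and Irf1 peaks in knockout 1.

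Likeness to other genes was measured as the root mean square difference between deviations of log2(FPKM + 1) over the 6 libraries. Of the members past the filter, the closest pair was Ifitm2 and Ifitm3, at 0.26, and the farthest was Bst2 and Irf1, at 1.17. Closest to Bst2 were Fcgrt, the neonatal Fc receptor (0.083), and Trappc6a (0.092), a vesicle tethering subunit. Closest to Isg15 was Prrg2 (0.068), followed by a feature with no gene name. Ifitm2 was most like Isg20, an interferon-induced exonuclease (0.066), and Cd1d1, a lipid-presenting molecule (0.071). Ifitm3 was most like Anxa6 (0.11) and C1qc (0.11), a complement gene of macrophages. Stat2 was most like Polg, the mitochondrial DNA polymerase (0.024), and Sbf1 (0.027), Irf1 like Anxa1 (0.087) and a feature with no gene name (0.11), and Irf7 like Rbbp7 (0.035) and Wdr54 (0.047). With 6 libraries and a shared difference between them, such likeness is a description only. It was not computed for Ifit1 and Ifit3, which were under the filter.

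The rest of the interferon pathway was read from 9 lists with 173 genes, of which 75 passed the filter. limma called 0 of the 75 higher and 0 lower, and 0 had an unadjusted p under 0.05, against 0.728% of all genes tested. Of the 75, 35 log2 fold changes were above 0 and 40 below it, with a median of -0.03 where all genes tested had -0.035. Lists differed in this, with 2 above and 12 below 0 for antigen presentation (median -0.27). Receptors and kinases had 7 above and 1 below 0 (median 0.12), and the cause was not tested. Of the 75, 3 did not overlap between the labels, where 3.53% of all genes tested did not. The named genes of these lists that passed the filter had adjusted p-values of 0.993 to 0.999 by limma.

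The interferons themselves were almost without reads. Of 21 interferon genes, 15 had 0 reads in all 6 libraries, among them Ifnb1, and none passed the filter. The list held 2, 3 and 4 reads in labelled wild type libraries 1 to 3 and 8, 3 and 7 in labelled knockout libraries 1 to 3. The receptors and kinases were present, with 8 of 9 genes past the filter. Jak1, the kinase shared by interferon receptors, stood at 43.1 ± 15.1 FPKM in labelled wild type and 53.2 ± 20.2 in labelled knockout libraries (SD, n = 3 each). Ifngr2, a chain of the interferon gamma receptor, stood at 16.2 ± 2.06 and 17.4 ± 1.17 FPKM, and Il10rb, shared with interferon lambda, at 3.15 ± 1.36 and 4.02 ± 1.40 FPKM.

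Of the 12 genes in the list of further STAT and IRF factors 5 passed. The list also held the regulators Nlrc5, Ciita and Batf2, none of which passed. Irf3, which the nucleic acid sensors activate, stood at 34.5 ± 12.1 and 25.8 ± 14.3 FPKM, and Stat3, a signal carrier of cytokines such as IL-6, at 9.42 ± 1.05 and 11.1 ± 3.01 FPKM. Of the 16 sensors and adaptors 6 passed. Tbk1, the kinase that activates IRF3, stood at 6.98 ± 0.456 and 8.13 ± 0.554 FPKM. Ddx41, a helicase also proposed as a DNA sensor, stood at 50.6 ± 19.3 and 42.3 ± 22.6 FPKM, and the adaptor Myd88 at 12.9 ± 1.69 and 12.1 ± 1.74 FPKM.

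The antiviral effectors covered a wide range of levels, with 27 of 63 genes past the filter and 36 under it. Shisa5, an endoplasmic reticulum protein, stood at 142 ± 19.5 and 117 ± 8.97 FPKM, and Ifi27 at 85.2 ± 54.6 and 68.1 ± 58.0 FPKM. Parp9, a regulator of ADP-ribosylation, stood at 1.20 ± 0.0861 and 1.63 ± 0.137 FPKM. Samhd1, which breaks down nucleotides, stood at 3.13 ± 0.249 and 3.80 ± 0.346 FPKM. Parp9, Samhd1 and Tbk1 were the 3 pathway genes without overlap, each higher in every labelled knockout library, near the share of 3.53% over all genes tested, and none passed the test. In contrast, Mx1, a classical antiviral GTPase, averaged 0.0185 FPKM over the 6 libraries, Ifit2 0.115, Oas2 0.0954 and Rsad2 0.241. These 4 were chosen after their values were seen.

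For ISG15 conjugation, 2 of 5 genes passed. Ube2l6, the conjugating enzyme, stood at 8.30 ± 2.64 and 6.46 ± 2.06 FPKM, and Trim25, a ligase, at 6.88 ± 1.11 and 8.37 ± 1.53 FPKM. Of 20 interferon gamma-induced GTPases and chemokines only Igtp, at 2.01 ± 0.438 and 2.20 ± 0.595 FPKM, and Gbp2, at 1.94 ± 0.955 and 1.97 ± 0.323 FPKM, passed. Antigen presentation was the most widely expressed list, with 14 of 15 genes past the filter. B2m, the light chain of class I molecules, stood at 200.1 ± 16.2 and 206 ± 52.4 FPKM, and the class I heavy chain H2-K1 at 167 ± 47.5 and 126 ± 44.6 FPKM. H2-Q4 stood at 14.5 ± 2.36 and 11.4 ± 3.29 FPKM, and H2-Q7 at 1.79 ± 0.590 and 1.27 ± 0.459 FPKM. Class I genes are related in sequence, and words shared between them were not counted, so their levels are uncertain.

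Of the antigen presentation genes, 10 of 14 were higher without overlap in the 3 libraries with few mitochondrial reads, where 34.9% of all genes tested were. Of the receptors and kinases, 6 of 8 were higher without overlap in the 3 with many, where 31.4% of all genes were. Over all 75 pathway genes tested, 23 were higher where mitochondrial reads were few and 27 where they were many, near these shares. For the 27 antiviral effectors tested the numbers were 7 and 9. The 2 sets of libraries also differed in their slope on gene length, and the part of gene length in these counts was not tested. Among feedback inhibitors 12 of 13 passed. Irf2bp2, a co-repressor, stood at 51.6 ± 16.7 and 49.8 ± 12.9 FPKM, and Irf2bp1 at 41.3 ± 8.09 and 32.0 ± 10.3 FPKM. Socs2, a suppressor of cytokine signalling, stood at 49.0 ± 17.3 and 45.6 ± 16.1 FPKM, and Pias4, an inhibitor of STAT factors, at 23.5 ± 5.06 and 18.4 ± 7.90 FPKM.

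**Figure D5:**
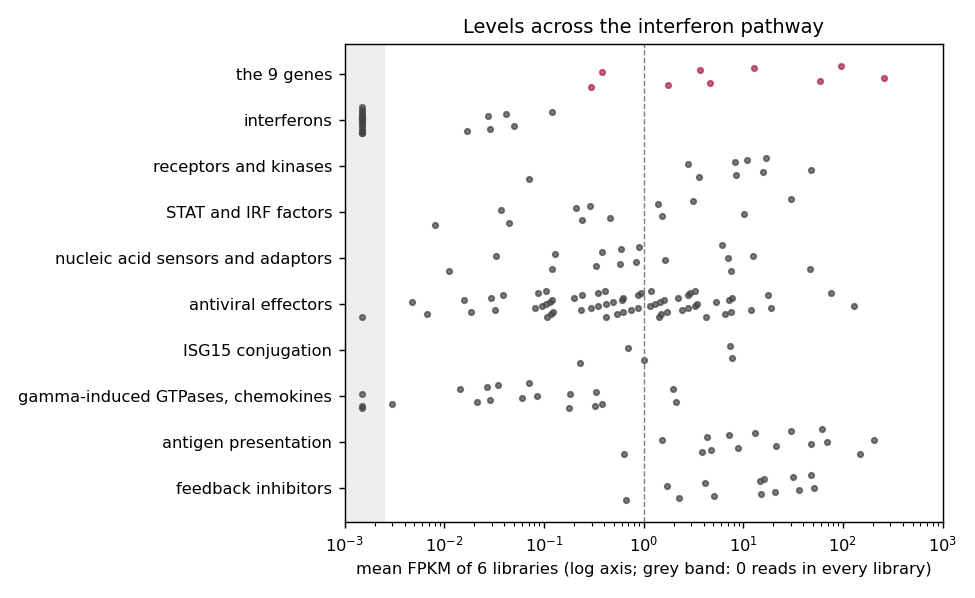
Mean FPKM over 6 libraries of each gene on a log axis, by list, with the 9 interferon-stimulated genes in red on top. The dashed line marks 1 FPKM, and the grey band holds genes with 0 reads in every library. Of 21 interferons 15 lie in the grey band, while 14 of 15 antigen presentation genes passed the filter.

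Interferon-stimulated genes are also expressed by leukocytes, endothelium and stroma, so markers of these cells were summed. In bulk RNA, fewer cells of a type and less RNA per cell cannot be told apart. The 22 leukocyte markers summed to 61.0 to 113 FPKM in labelled wild type and 58.8 to 123 FPKM in labelled knockout libraries, with 12 past the filter and 6 at 0 in at least 1 library. Ptprc, the pan-leukocyte marker, was at 0.0110 to 0.0747 FPKM, near 0 in every library, while Cd68 stood at 4.42 to 7.27 FPKM and C1qa, a macrophage gene chosen after its values were seen, at 5.26 to 30.2 FPKM. The leukocyte sum was 110 to 123 FPKM in the libraries with few mitochondrial reads and 58.8 to 105 in those with many. Nearest to each other were wild type 2 at 110 FPKM and knockout 1 at 105 FPKM. Their scaling totals were 0.939 and 1.12 times the recovered reads. Per recovered read wild type 2 would lie below knockout 1, so the leukocyte sum would not separate. The sums of granulosa, oocyte and erythroid markers separated on the FPKM scale in the direction of Bst2. They stood at 9647 to 12473 against 4890 to 6697 FPKM, 498 to 584 against 293 to 369 FPKM, and 2793 to 4456 against 474 to 756 FPKM. Single leukocyte markers differed in direction. C1qa was at 19.5 to 30.2 FPKM where mitochondrial reads were few and 5.26 to 15.4 where they were many, whereas Ptprc ran the other way without overlap, at 0.0110 to 0.0390 against 0.0575 to 0.0747 FPKM. Cd68 overlapped, at 4.42 to 5.63 against 5.40 to 7.27 FPKM. The 15 endothelial markers summed to 22.5 to 41.2 FPKM in labelled wild type and 30.6 to 49.8 FPKM in labelled knockout libraries, none at 0 in any library. The 15 markers of stroma, pericytes and smooth muscle summed to 361 to 555 and 387 to 593 FPKM, none at 0. Neither sum separated by mitochondrial share. Endothelial markers summed to 22.5 to 49.8 FPKM where mitochondrial reads were few and 28.4 to 37.0 where they were many. The stromal sums were 430 to 555 against 361 to 593 FPKM. Theca markers overlapped as well, at 94.6 to 174 against 90.9 to 134 FPKM. The part of these cells in the levels of the members was not tested.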

How the data were processed

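For each library the authors deposited FPKM values beside gene names, coordinates, gene length and biotype, per the file headers. The submitters' processing notes name HISAT2 2.0.5 and the build mm10, and the labels' protocols a TruSeq RNA kit. How reads were counted and scaled is not given in the sources used here. Multiplied by gene length, 100% of the values fell on multiples of a fixed step (tolerance 0.01 reads), which gave back the reads. The authors' totals were 0.894 to 0.939 times the recovered reads in the 3 libraries with few mitochondrial reads. In the 3 with many they were 1.12 times the recovered reads.

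limma 3.58.1 in R 4.3.3, with a trend and genotype as the only term, tested log2(FPKM + 1) for genes with FPKM over 1 in at least 3 libraries. Two-sided p-values were adjusted by the Benjamini-Hochberg method over all genes tested, with a threshold of 0.05. The test was also run on simulated data that lacked the mitochondrial and length differences between libraries. That run therefore does not tell how the test performs on these libraries. Libraries were also divided at 1% mitochondrial reads. Members, lists, tests and alternatives were chosen with earlier results of these data known. The text names all members, the 2 tested genes of each list with the smallest p and the 2 with the highest mean, and the 2 features most like each member that passed the filter. Near-copies were found by 50-base words shared between GENCODE M21 transcripts, whose coordinates for the 9 members equal those of the files. The cell type lists of theca, oocyte, erythroid and granulosa genes summed to 90.9 to 174, 293 to 584, 474 to 4456 and 4890 to 12473 FPKM. Figures were drawn with matplotlib 3.10.9.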

Additional observations from a re-analysis of the deposited data

How the results depend on the processing

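limma called 0 genes and 0 members under the pseudocounts, filters, library totals, limma-voom, the replicate block, protein-coding genes and when 1 library was left out (0 to 0). With the mitochondrial side or the length slope as a term it called 1 gene, Mir1291, and 0 members. Without replicate 3 of both groups it called 3451 genes, 14 pathway genes and 1 member, Bst2 (-1.58), and the remaining libraries are divided by label as by mitochondrial share. With the replicate block it called 0 genes and 0 members. Deviations of same-numbered libraries correlated at -0.42, -0.67 and -0.89. Same-numbered libraries lay on opposite sides of 1% mitochondrial reads, so these correlations cannot tell whether the numbers pair the libraries.

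No log2 fold change that turned its sign was called. For each of them the cause was not tested. With the mitochondrial side as a term Bst2 turned to 0.17, Ifit3 to 0.10, Isg15 to 0.30 and Ifitm2 to 0.013. With the length slope they turned to 0.15, 0.072, 0.31 and 0.052. With library totals, which moved the median of all genes from -0.035 to 0.036, Isg15 turned to 0.018, Ifitm2 to 0.046 and Stat2 to 0.053. With limma-voom Ifitm2 turned to 0.0020 and Stat2 to 0.015. Without replicate 3 of both groups Ifit1 turned to -0.081, Ifitm3 to -0.25, Stat2 to 0.26 and Irf7 to -0.29. When 1 library was left out Bst2 ran from -1.01 to 0.14, Ifit1 from 0.0068 to 0.32, Ifit3 from -0.23 to 0.041, Isg15 from -0.46 to 0.37 and Ifitm2 from -0.20 to 0.12. Ifitm3 ran from -0.11 to 0.45, Stat2 from -0.16 to 0.13, Irf1 from 0.040 to 0.59 and Irf7 from -0.15 to 0.26. Irf1 kept its sign in all 17 alternatives. Ifit1 and Ifit3 have no value under the filter on mean FPKM over 1.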

Other observations

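The library labelled knockout 3 held all 5 reads of Ifng, the gene of interferon gamma, which T cells and natural killer cells secrete. It also held 11 of the 13 reads of Cd3g, a T cell receptor subunit, and 8 of the 9 reads of Ncr1, a natural killer cell receptor. Ifit1, Ifit3, Isg15 and Irf7 were each highest in the same library, at 0.783, 0.707, 8.08 and 2.65 FPKM. Irf1 and Stat2 were lowest in it, at 9.02 and 2.86 FPKM. Bst2 and Ifitm3 were highest in wild type 1, and Ifitm2 in knockout 1. Knockout 3 also had the lowest mitochondrial share of reads, at 0.125%. Cd3e had 0 reads in knockout 3. Ptprc had 3, 5 and 23 reads in labelled wild type libraries 1 to 3 and 24, 25 and 11 in labelled knockout libraries 1 to 3. The list of interferon gamma-induced GTPases and chemokines was not highest in knockout 3. It held 185, 231 and 405 reads in labelled wild type libraries 1 to 3 and 380, 313 and 258 in labelled knockout libraries 1 to 3. The share of all genes that were highest in knockout 3 was not counted. This comparison was picked after the values were seen. The numbers of reads of Ifng, Cd3g, Ncr1 and the Ifit genes are small, and the part of such cells in the levels was not tested.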
